A study of Arabidopsis thaliana with 15 samples.

Results

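The WRKY transcription factors of Arabidopsis thaliana were followed in leaves and other aboveground parts of plants sprayed with increasing numbers of a harmless leaf bacterium. The members were a list of 49 WRKY genes, and all 49 identifiers were present among the 32833 genes of the count table. A filter on low counts kept 46 of the 49 and 19404 genes in all. WRKY31, WRKY62 and WRKY72 did not pass it, and their levels are given without a test in the comparisons of all 5 groups with every library.

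WRKY proteins are plant transcription factors that carry a conserved WRKY domain with a zinc finger and bind the W-box, a short DNA element found in the promoters of many defence genes and of WRKY genes themselves. The family is sorted into groups I, II and III by the number of WRKY domains and the type of zinc finger. Group II is divided further into IIa to IIe. Many members are transcribed within minutes to days of pattern recognition, of MAP kinase signalling or of a rise in salicylic acid, and the family holds both activators and repressors of immunity.

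All plants were of the accession Col-0, were grown for 6 weeks with 4 plants to a box under sterile conditions, and were sampled 96 h after 1 ml of suspension had been sprayed into the box. The bacterium was Williamsia sp. Leaf354, suspended in phosphate-buffered saline at 100000, 1000000, 10000000 or 100000000 CFU/ml, and these groups are called W5, W6, W7 and W8. The mock group received the buffer alone. Each group had 3 libraries, each made from 2 plants of different boxes, and the question in the study's title is whether immune responses follow the bacterial density.

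Library totals ran from 17811560 to 21870246 counts. Mock replicate 3 stood apart from mock replicates 1 and 2: on the first principal component of all genes it lay at 19.4, where those lay at -42.4 and -39.8, and its summed level of the 49 WRKY genes was 938 CPM (counts scaled by library size and TMM factor) against 522 and 532 CPM. Counts of members in comparisons with mock, and the changes printed there, are therefore given with and without that library. This choice was made after seeing the data, and the WRKY level itself was part of the reason. Calls and adjusted p values without mock replicate 3 are thus not independent of the choice. The slope on density, which uses no mock library, is given first. Leaf identity markers were abundant: LHCB1.1, RBCS1A, LHCB2.1 and GAPA1 summed to 22664 to 27237 CPM in mock and 17556 to 19075 CPM in W8, and 4 of 4 were called lower in W8 against mock, by -0.54 to -0.41 (log2) with mock replicate 3 and by -0.60 to -0.47 without it. Of 5 root hair markers 3 (EXPA7, EXPA18 and LRX1) had no count in any library, and 6 flower markers summed to 2.16 to 5.67 CPM. The part of the lower leaf marker levels in the WRKY values was not tested, and in bulk tissue fewer cells of a type and less RNA per cell cannot be told apart.

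The promoters of 7 members are printed because the W-box is the element that WRKY proteins bind, and they span from 3 matches to 0 among members that rose with density. They are the 300 bases before the annotated gene start in the RefSeq annotation of TAIR10.1, each read 5′ to 3′ on the gene's strand. Capitals mark the W-box letters TTGACC or TTGACT, found as such or on the other strand as GGTCAA or AGTCAA. WRKY33 and WRKY30 hold 3 matches each, WRKY53, WRKY15 and WRKY17 hold 2 each, WRKY11 holds 1, and WRKY70 holds 0.
WRKY33, chr2:16107935-16108234, plus strand: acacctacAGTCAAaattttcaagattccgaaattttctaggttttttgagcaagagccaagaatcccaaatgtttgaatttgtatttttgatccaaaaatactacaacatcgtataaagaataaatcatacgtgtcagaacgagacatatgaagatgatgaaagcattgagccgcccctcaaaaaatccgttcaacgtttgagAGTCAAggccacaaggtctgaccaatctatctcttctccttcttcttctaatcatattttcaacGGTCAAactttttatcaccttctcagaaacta
WRKY30, chr5:8154711-8155010, minus strand: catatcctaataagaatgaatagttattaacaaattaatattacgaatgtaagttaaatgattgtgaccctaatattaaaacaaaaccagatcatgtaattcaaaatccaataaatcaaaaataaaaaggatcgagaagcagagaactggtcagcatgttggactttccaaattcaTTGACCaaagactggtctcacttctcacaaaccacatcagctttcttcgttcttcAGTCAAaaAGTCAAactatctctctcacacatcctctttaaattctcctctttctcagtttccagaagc
WRKY53, chr4:12393983-12394282, minus strand: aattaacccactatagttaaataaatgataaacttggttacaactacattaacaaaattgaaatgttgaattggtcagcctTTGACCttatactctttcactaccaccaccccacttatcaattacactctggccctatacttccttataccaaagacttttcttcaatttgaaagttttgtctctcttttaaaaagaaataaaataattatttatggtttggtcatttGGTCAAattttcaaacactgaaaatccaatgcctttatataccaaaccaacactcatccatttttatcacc
WRKY15, chr2:9924586-9924885, plus strand: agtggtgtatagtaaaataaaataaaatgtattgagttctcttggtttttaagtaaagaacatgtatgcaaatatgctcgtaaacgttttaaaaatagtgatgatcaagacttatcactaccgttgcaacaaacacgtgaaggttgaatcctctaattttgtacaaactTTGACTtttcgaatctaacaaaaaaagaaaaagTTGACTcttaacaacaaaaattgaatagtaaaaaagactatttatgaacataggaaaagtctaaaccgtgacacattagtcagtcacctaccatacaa
WRKY17, chr2:10439470-10439769, minus strand: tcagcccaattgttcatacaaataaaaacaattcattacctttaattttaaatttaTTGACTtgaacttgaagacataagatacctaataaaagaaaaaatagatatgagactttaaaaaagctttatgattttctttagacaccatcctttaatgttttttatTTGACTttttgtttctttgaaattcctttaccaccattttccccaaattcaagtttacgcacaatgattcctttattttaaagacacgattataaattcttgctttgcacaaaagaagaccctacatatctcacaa
WRKY11, chr4:15291935-15292234, minus strand: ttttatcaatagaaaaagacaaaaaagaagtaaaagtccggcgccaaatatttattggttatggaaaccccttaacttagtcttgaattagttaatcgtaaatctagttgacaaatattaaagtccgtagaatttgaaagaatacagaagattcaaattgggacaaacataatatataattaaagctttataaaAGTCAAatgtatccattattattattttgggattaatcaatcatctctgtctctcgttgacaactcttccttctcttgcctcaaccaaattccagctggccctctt
WRKY70, chr3:20910624-20910923, minus strand: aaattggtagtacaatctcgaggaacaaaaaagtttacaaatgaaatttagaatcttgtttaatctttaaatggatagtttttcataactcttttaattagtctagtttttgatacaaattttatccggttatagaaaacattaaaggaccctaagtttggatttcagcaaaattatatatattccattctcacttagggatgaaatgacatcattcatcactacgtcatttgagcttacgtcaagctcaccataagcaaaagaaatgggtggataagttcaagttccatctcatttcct

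Over the 49 members, 22 (44.9%) held at least 1 W-box in this window, against 32.3% of 27443 protein-coding nuclear genes. At least 2 were found in 10 members (20.4%), against 7.91% of those genes. In WRKY33 the 3 matches began 292, 96 and 32 bases before the start, and all were on the strand opposite to the gene. The window held a W-box in 16 of the 33 members called on the slope on density below and in 4 of the 13 tested and not called. The 3 members of group IIa, WRKY18, WRKY40 and WRKY60, held 0 in this window. A match describes letters only and is not a measured binding site.

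Across the 12 inoculated libraries WRKY transcripts rose with density. The slope on log10 density, in log2 units per 10-fold density, was called (edgeR quasi-likelihood test, Benjamini-Hochberg adjusted p under 0.05) in 33 of 46 members, all of them rising, where 19.4% of the 19285 genes tested rose. No member was called falling, while 15.4% of all genes were. The median slope was 0.30 over the members and near 0 (-0.0036) over all genes. The summed WRKY level was 556 to 576 CPM over the W5 libraries, then 597 to 646 CPM (W6), 714 to 925 CPM (W7) and 1083 to 1407 CPM (W8), so the libraries of neighbouring densities did not overlap. All 3 W8 libraries lay above all 3 W5 libraries in 35 of 46 members, against 25.7% of all genes.

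**Figure D1:**
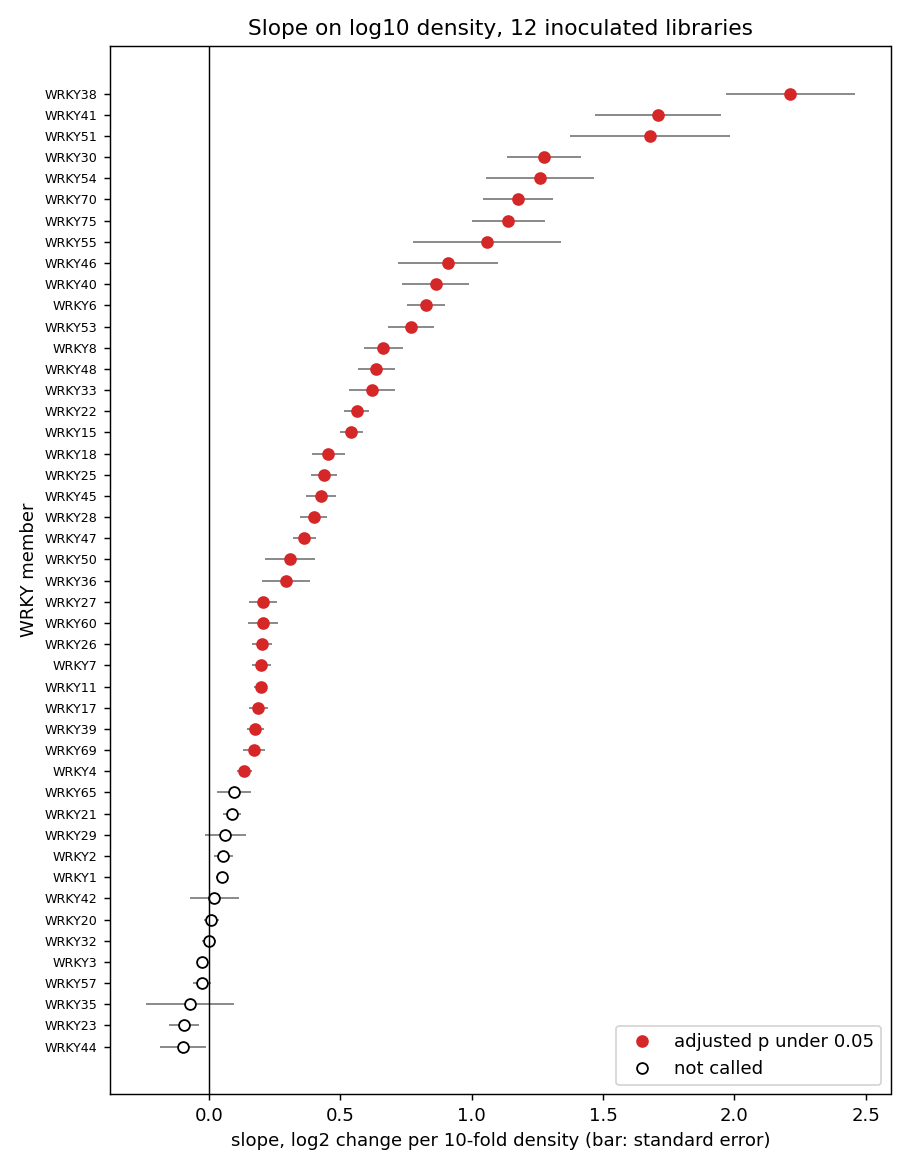
Slope of each of the 46 tested WRKY members on log10 density over the 12 inoculated libraries (log2 change per 10-fold density, bars are standard errors); filled points passed an adjusted p of 0.05. WRKY38, which passed the filter through its high libraries, is plotted at 2.21, and the 33 filled points all lie to the right of 0.

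Of the 33 members called on the slope, 26 (78.8%) had a higher mean CPM at each of the 3 steps in density, as had 59.7% of the 3734 genes of the table that rose on the slope. These shares describe genes chosen for their rise, and the single steps called 0, 0 and 6 members, as given below. The step from W7 to W8 was the largest for 18, that from W6 to W7 for 13 and that from W5 to W6 for 2 (WRKY48 and WRKY51). The split is not sharp. For WRKY48 the steps from W5 to W6 and from W7 to W8 were 0.718 and 0.716. For WRKY53 the last 2 steps were both 0.921. For WRKY51 the first step rests on W6 replicate 3, with 12 counts against 1 and 1 in the other W6 libraries. The median step of these 33 was 0.19 (log2) from W5 to W6, 0.55 from W6 to W7 and 0.72 from W7 to W8. Without W8 the slope was called in 16 members. The share of all genes was not computed without W8, so this count is not read as a result about the members.

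**Figure D2:**
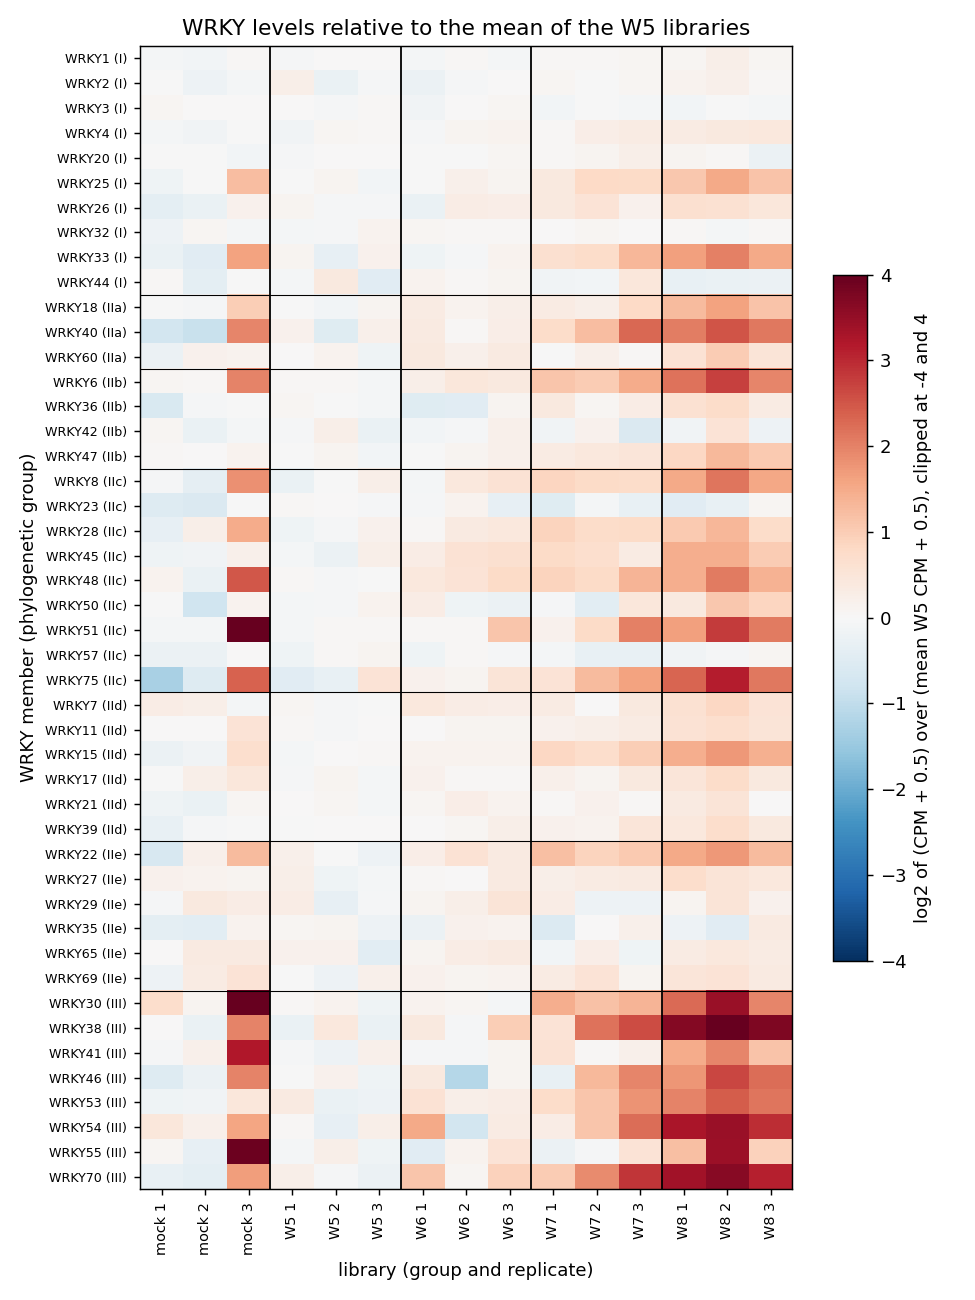
Level of the 46 tested WRKY members in each of the 15 libraries, as log2 of CPM plus 0.5 over the same value of the mean W5 level, with members ordered by phylogenetic group. Red deepens from W5 to W8, most in group III, and mock replicate 3 is the highest mock library for 36 of the 46 members.

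In groups III and IIa every member that passed the filter rose on the slope. The 8 of group III had a median slope of 1.22, against 0.30 over the family. WRKY38, WRKY41 and, in group IIc, WRKY51 reached the level the filter asks for (0.487 CPM) in at most 1 of the 8 libraries outside W7, W8 and mock replicate 3. They passed through the libraries in which they are high, so their rise, and their share in these counts and in the median, is not independent of the filter. Without W8 the slope was no longer called for WRKY46, WRKY54 and WRKY55 of group III and for WRKY40 and WRKY60 of group IIa.

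WRKY70 (AT3G56400), a regulator between salicylic acid and jasmonic acid signalling, had 10.7, 10.1 and 43.1 CPM in the mock libraries. It had 15.7, 12.9 and 11.3 CPM in W5 and 29.1, 14.2 and 25.5 in W6. It had 27.4, 50.9 and 98.6 CPM in W7 and 140, 171 and 118 in W8. All W8 libraries were above every other library, and the W7 libraries had the widest range of the 5 groups. The slope was 1.18 ± 0.14 (SE, adjusted p = 8.47e-05), and W8 was 3.43 ± 0.63 log2 units above W5 (adjusted p = 0.00179). Per kb of exon WRKY70 became the most abundant of the 49, from a mean of 9.02 ± 1.52 CPM per kb (SD, n = 3) in W5 to 97.2 ± 18.2 in W8.

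WRKY54 (AT2G40750), its close relative and like it a negative regulator of salicylic acid synthesis, had 2.01, 1.63 and 4.98 CPM in mock. It had 1.40, 0.964 and 1.69 CPM in W5, and 4.82, 0.607 and 1.81 in W6. It had 1.77, 3.50 and 8.24 CPM in W7 and 17.3, 19.7 and 13.7 in W8. W8 was apart from all other libraries, whereas W6 and W7 overlapped. The slope was 1.26 ± 0.21 (adjusted p = 0.000753).

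WRKY53 (AT4G23810), a regulator of leaf senescence that also acts in basal resistance, had 12.2, 12.5 and 19.5 CPM in mock. It had 18.03, 11.6 and 12.1 CPM in W5, and 21.1, 16.4 and 17.04 in W6. It had 23.6, 30.5 and 49.4 CPM in W7 and 56.6, 76.1 and 62.8 in W8. The W6, W7 and W8 libraries did not overlap with each other. Its slope was 0.77 ± 0.09 (adjusted p = 6.23e-05). Only 79.5% of its exon bases are free of another gene, AT4G23800 on the opposite strand, and the strand setting of the counting is not given. That gene's own slope was -0.08 (adjusted p = 0.206).

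WRKY46 (AT2G46400), which acts with WRKY70 and WRKY53 in resistance to bacteria, had 1.68, 2.15 and 11.96 CPM in mock. It had 2.60, 3.03 and 2.27 CPM in W5, and 3.64, 0.934 and 2.85 in W6. It had 2.07, 7.18 and 11.6 CPM in W7 and 10.2, 19.3 and 14.3 in W8. W7 spanned the range from W5 to W8, and mock replicate 3 lay among the W8 libraries. The slope was 0.91 ± 0.19 (adjusted p = 0.00347).

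WRKY38 (AT5G22570) and WRKY62 (AT5G01900) are salicylic acid-induced repressors of basal resistance. WRKY38 had 0.112, 0 and 1.92 CPM in mock, and 0, 0.321 and 0 in W5. It had 0.295, 0.0934 and 0.712 CPM in W6, 0.393, 2.23 and 3.23 in W7, and 7.24, 12.4 and 7.55 in W8. Every W8 library was above every other, and the slope of 2.21 ± 0.25 (adjusted p = 3.4e-05) was the steepest of the members tested, in a gene that passed the filter through its high libraries. WRKY62, with 0, 0 and 0 counts in mock, had 0, 2 and 1 in W5, 1, 0 and 0 in W6, 0, 0 and 13 in W7, and 7, 4 and 7 in W8. Reads of WRKY62 were thus mostly in W8 and in W7 replicate 3, at levels below the filter.

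The other members of group III were low in W5 and rose at the higher densities, WRKY30 from W7 on (2.14 to 2.70 CPM in W7). WRKY30, known for a role in oxidative stress, had 1.40, 0.766 and 26.0 CPM in mock and 5.16, 12.3 and 4.05 in W8, with W5 and W6 between 0.529 and 0.787 CPM. Its slope was 1.27 ± 0.14 (adjusted p = 9.46e-06). WRKY55 had 17.99 CPM in mock replicate 3, 12.7 CPM in W8 replicate 2 and at most 2.31 CPM elsewhere. Its slope was 1.06 ± 0.28 (adjusted p = 0.0129), and in W8 it rested mostly on replicate 2. WRKY41 reached 1.69 CPM in W8 and 4.75 CPM in mock replicate 3. Its slope was 1.71 ± 0.24 (adjusted p = 3.4e-05), but just 58.3% of its exon bases are its own, and the gene on the opposite strand, AT4G11080, had a slope of -0.05 (adjusted p = 0.534).

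**Figure D3:**
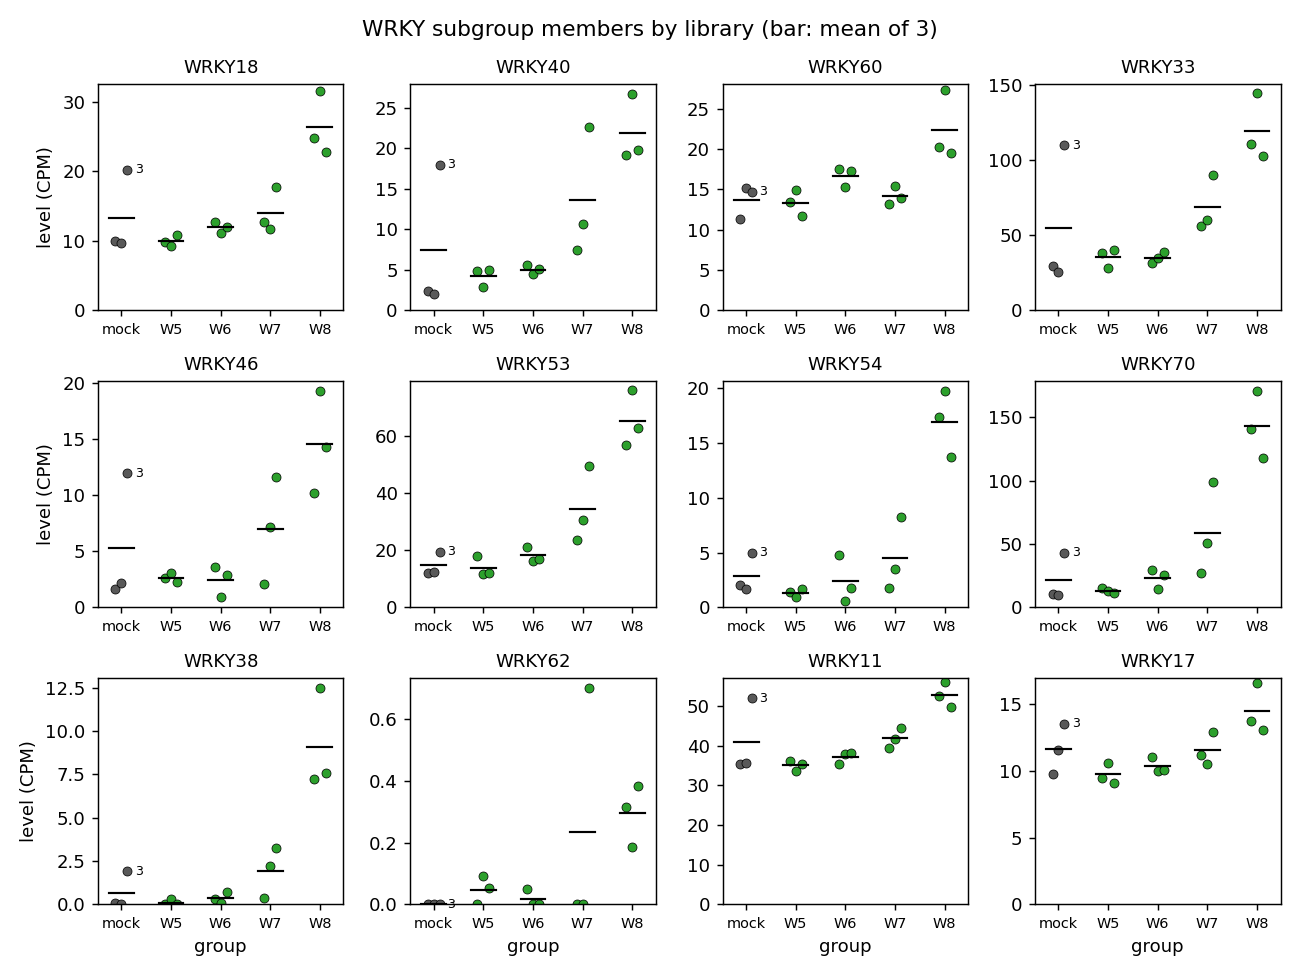
Level in CPM of 12 WRKY members in every library of the 5 groups, with a bar at the mean of 3 libraries and mock replicate 3 marked by its number; each panel's axis starts at 0. WRKY70, WRKY54 and WRKY38 stand apart in W8. Mock replicate 3 lies within the range of the W8 libraries in WRKY33, WRKY46, WRKY11 and WRKY17, and near but below it in WRKY40 and WRKY18.

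Group IIa holds WRKY18 (AT4G31800), WRKY40 (AT1G80840) and WRKY60 (AT2G25000), which form complexes with each other and act partly redundantly, often as repressors of early defence. All 3 rose on the slope, by different amounts. WRKY18 had 9.94, 9.71 and 20.2 CPM in mock, 9.82, 9.27 and 10.9 in W5, 12.7, 11.2 and 11.9 in W6, 12.7, 11.7 and 17.7 in W7, and 24.7, 31.5 and 22.7 in W8. WRKY40 had 2.35, 2.04 and 17.99 CPM in mock, 4.86, 2.89 and 4.97 in W5, 5.56, 4.44 and 5.15 in W6, 7.43, 10.7 and 22.7 in W7, and 19.2, 26.8 and 19.8 in W8. In WRKY18 all W8 libraries lay above all others, whereas in WRKY40 W7 replicate 3 lay among them. WRKY60 had 11.3, 15.1 and 14.7 CPM in mock, 13.4, 14.9 and 11.7 in W5, 17.5, 15.3 and 17.2 in W6, 13.1, 15.4 and 13.95 in W7, and 20.2, 27.3 and 19.5 in W8. In WRKY60 all W8 libraries lay above all others, and the W6 and W7 libraries overlapped. Its mean went down from 16.6 CPM in W6 to 14.2 in W7, a step of -0.23 (log2) that was not called.

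The slopes were 0.86 ± 0.13 for WRKY40 (adjusted p = 0.000361), 0.45 ± 0.06 for WRKY18 (adjusted p = 8.32e-05) and 0.21 ± 0.06 for WRKY60 (adjusted p = 0.0108). Differences within subgroups were tested in the 11 possible pairs by a two-sided permutation test with 100000 resamples on log2 CPM. WRKY40 rose by 0.64 more per 10-fold density than WRKY60 (95% interval 0.31 to 0.97, adjusted permutation p = 0.0081). WRKY18 rose by 0.24 more than WRKY60 (0.099 to 0.38), and its slope minus that of WRKY40 was -0.40 (-0.63 to -0.17), both with an adjusted permutation p of 0.0122.

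Among the other pairs, WRKY53 minus WRKY70 was -0.39 (-0.56 to -0.22, adjusted permutation p = 0.00418). WRKY38 minus WRKY62 was 1.42 and also passed, but no difference is read from it, since the counts of WRKY62 are near 0 and its slope is held down by the prior count of 2. WRKY54 and WRKY70 differed by 0.025 (-0.29 to 0.34) and WRKY46 and WRKY53 by 0.093 (-0.28 to 0.47), neither passing. WRKY46 minus WRKY54 (-0.32), WRKY46 minus WRKY70 (-0.30) and WRKY53 minus WRKY54 (-0.42) had adjusted permutation p values of 0.0592, 0.0553 and 0.0666. Without W8, 0 of the 11 pairs passed at 9 libraries, where 5 had passed at 12.

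WRKY33 (AT2G38470), a group I factor that controls camalexin synthesis and is a substrate of MPK3 and MPK6, had 29.4, 25.8 and 110 CPM in mock. It had 38.3, 28.3 and 39.8 CPM in W5, and 31.7, 34.7 and 39.0 in W6. It had 56.0, 59.8 and 90.01 CPM in W7 and 111, 145 and 103 in W8. The W5 and W6 libraries overlapped, and W7 and W8 each lay above them without overlap. The slope was 0.62 ± 0.09 (adjusted p = 0.00026). Its relative WRKY25 had a slope of 0.44 (adjusted p = 2.86e-05) and WRKY26 of 0.20 (adjusted p = 0.000925); these 3 are known from heat tolerance as well. WRKY4, which acts in resistance to necrotrophs, rose by 0.13 per 10-fold density (adjusted p = 0.000949). These were the 4 of 10 group I members called. WRKY3, the closest relative of WRKY4, had 47.8 to 56.0 CPM in all 15 libraries and a slope of -0.02 (adjusted p = 0.365).

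Group IId, whose members bind calmodulin, had 5 of 6 members called on the slope, with a median of 0.19. WRKY15 (AT2G23320) was the steepest of them, with 23.4, 24.9 and 44.3 CPM in mock, 26.4, 28.1 and 28.3 in W5, 30.7, 30.5 and 30.5 in W6, 49.7, 45.5 and 55.2 in W7, and 76.4, 93.4 and 74.2 in W8. Its 4 inoculated groups did not overlap with each other, and its slope was 0.54 ± 0.04 (adjusted p = 6.96e-07). The pair WRKY11 (AT4G31550) and WRKY17 (AT2G24570), partly redundant repressors of basal resistance, rose in parallel at different levels. WRKY11 had 35.4, 35.7 and 52.0 CPM in mock, 36.2, 33.7 and 35.3 in W5, 35.4, 37.9 and 38.2 in W6, 39.5, 41.8 and 44.5 in W7, and 52.6, 56.1 and 49.9 in W8. WRKY17 had 9.72, 11.5 and 13.5 CPM in mock, 9.47, 10.6 and 9.09 in W5, 11.0, 9.95 and 10.1 in W6, 11.2, 10.5 and 12.9 in W7, and 13.7, 16.6 and 13.0 in W8. In both, the W8 libraries lay above all other inoculated libraries, and mock replicate 3 lay within the range of the W8 libraries. The slopes were 0.20 ± 0.02 for WRKY11 (adjusted p = 9.79e-06) and 0.19 ± 0.04 for WRKY17 (adjusted p = 0.000651), and their difference was 0.011 (95% interval -0.056 to 0.078).

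In group IIc 7 of 9 members were called on the slope. WRKY51, which with WRKY50 mediates repression of jasmonic acid signalling by salicylic acid, had no count in mock replicates 1 and 2, 17.9 CPM in mock replicate 3, at most 0.0529 CPM in W5 and 1.18, 3.24 and 1.75 CPM in W8. Its slope was 1.68 ± 0.31 (adjusted p = 0.000716), and WRKY50 had a slope of 0.31 (adjusted p = 0.0175) that was not called without W8 replicate 2 or without W8 replicate 3. WRKY75, a regulator of phosphate uptake and senescence, had a slope of 1.14 (adjusted p = 2.88e-05). WRKY8, WRKY48, WRKY28 and WRKY45 had slopes of 0.66, 0.64, 0.40 and 0.43, each called. WRKY28 is an activator of the salicylic acid synthesis gene ICS1, and WRKY48 a repressor of basal resistance. WRKY45 (AT3G01970) had 8.77, 8.94 and 11.6 CPM in mock, 9.47, 8.45 and 11.9 in W5, 12.3, 15.2 and 15.6 in W6, 17.2, 16.2 and 12.7 in W7, and 28.2, 28.2 and 20.6 in W8. Its W8 libraries lay above all others.

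WRKY50 (AT5G26170) had 2.12, 1.02 and 2.47 CPM in mock, 2.00, 2.07 and 2.43 in W5, 2.80, 1.87 and 1.75 in W6, 2.07, 1.499 and 3.18 in W7, and 3.03, 5.17 and 4.38 in W8. It was higher in W8, where 1 library lay within the range of W7. WRKY6 (AT1G62300), a group IIb factor of senescence and phosphate starvation, had 7.71, 7.51 and 30.1 CPM in mock, 7.46, 7.48 and 6.82 in W5, 8.71, 10.1 and 9.59 in W6, 16.4, 15.2 and 21.3 in W7, and 34.5, 51.0 and 29.5 in W8. Its 4 inoculated groups did not overlap, and the slope was 0.83 ± 0.07 (adjusted p = 3.56e-06). WRKY47 and WRKY36 were the other group IIb members called, with slopes of 0.36 (adjusted p = 2.33e-05) and 0.29 (adjusted p = 0.0192), the second not called without W8 replicate 1 or without W8 replicate 2. Of the IIb members that did not pass the filter, WRKY31 reached 0.751 CPM and WRKY72 reached 1.22 CPM, both in W8 replicate 2. In group IIe 3 of 6 were called, led by WRKY22, a factor of the flg22 pathway, at 0.56 (adjusted p = 1.99e-07), while its paralogue WRKY29 had a slope of 0.06 (adjusted p = 0.578).

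The 13 members not called on the slope were WRKY1, WRKY2, WRKY3, WRKY20, WRKY32 and WRKY44 of group I, WRKY42 of IIb, WRKY23 and WRKY57 of IIc, WRKY21 of IId, and WRKY29, WRKY35 and WRKY65 of IIe. Their slopes lay between -0.10 (WRKY44, the trichome regulator TTG2, adjusted p = 0.416) and 0.10 (WRKY65, adjusted p = 0.282). WRKY1, WRKY3 and WRKY20 were nonetheless well expressed, at 31.4 to 56.0 CPM. Per kb of exon the order of the family changed with density: in W5 WRKY26 (25.4 ± 1.57 CPM per kb, SD, n = 3) and WRKY3 (23.9 ± 0.808) led, within their spreads of each other, and in W8 WRKY70 (97.2 ± 18.2), WRKY15 (63.3 ± 8.19) and WRKY33 (58.8 ± 11) did.

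In W5 against mock edgeR called 0 of 46, where 0.165% of all genes rose and 0.0155% fell. At an unadjusted p under 0.05, 0 rose and 5 fell, and DESeq2 called 1, WRKY30, lower. In W6 against mock edgeR again called 0 (0.943% of all genes rose and 0.34% fell). Unadjusted, 3 rose and 4 fell, and DESeq2 called WRKY30 and WRKY41 lower. Both had their highest mock level, by far, in replicate 3. Without mock replicate 3 edgeR called 0 of 47 in both, where 0.25% of all genes rose in W5 and 1.5% in W6. The added member was WRKY72, which then passed the filter. Unadjusted, 2 members rose and 1 fell in W5, and 11 rose and 0 fell in W6. No share of all genes is given at the unadjusted threshold, so no unadjusted count is read as a result about the members.

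In W7 against mock 6 of 46 members rose and 0 fell, where 6.29% of all genes rose and 6.77% fell: WRKY4, WRKY15, WRKY39, WRKY45, WRKY47 and WRKY53. WRKY53 had the largest change, 1.22 ± 0.30 (adjusted p = 0.0227), and 1.48 ± 0.33 without mock replicate 3 (adjusted p = 0.0118). Without mock replicate 3 the count was 20 of 47 (9.98% of all genes), and it was 0 without mock replicate 1 or without mock replicate 2. It was 1 without W7 replicate 2 or without W7 replicate 3.

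In W8 against mock 21 of 46 members rose and 0 fell, where 18.5% of all genes rose and 17% fell. The median change was 0.46 over the members and near 0 (-0.0029) over all genes. The largest called changes were those of WRKY38 (3.66 ± 1.03, adjusted p = 0.0178), WRKY70 (2.73 ± 0.60, adjusted p = 0.00475), WRKY54 (2.54 ± 0.67, adjusted p = 0.0129) and WRKY53 (2.14 ± 0.30, adjusted p = 0.000235). WRKY38 passed the filter through its high libraries, so its call is not independent of the filter. WRKY15 and WRKY45 both rose by 1.39, WRKY6 by 1.33 and WRKY50 by 1.16. The call of WRKY6 (adjusted p = 0.0436) was lost when any 1 of the 14 libraries other than mock replicate 3 was left out. That of WRKY38 was lost without mock replicate 1 or W8 replicate 2, that of WRKY54 without mock replicate 1 or 2, and that of WRKY18 without W8 replicate 2.

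Without mock replicate 3, 34 of 47 members rose in W8 against mock, where 20.5% of all genes did. Of these, 20 were among the 21 called with it. The 34 include WRKY72 (3.64, adjusted p = 0.00943). It then passed the filter only through W8 libraries, so its call is not independent of the filter. The median change of the members was then 1.16. Of the members above, WRKY38 then changed by 7.25 ± 1.28 (adjusted p = 0.00124), fitted against 2 mock libraries at or near 0, and WRKY6 by 2.34 ± 0.22 (adjusted p = 3.92e-06). WRKY70 changed by 3.79, WRKY54 by 3.22, WRKY53 by 2.40, WRKY15 by 1.76, WRKY45 by 1.54 and WRKY50 by 1.42, all called. WRKY33 changed by 1.11 ± 0.47 with that library (adjusted p = 0.0947) and by 2.12 ± 0.25 without it (adjusted p = 0.000105). WRKY40 changed by 1.52 (adjusted p = 0.117) and by 3.32 (adjusted p = 0.000517), and WRKY46 by 1.44 (adjusted p = 0.167) and by 2.93 (adjusted p = 0.00949). WRKY30, WRKY41, WRKY51 and WRKY55 were below mock with the library, by values that did not pass (-0.40, -0.51, -1.55 and -0.21), and were called above it without, at 2.74, 3.41, 8.37 and 3.18. The value for WRKY51 is fitted against mock libraries at 0 and depends on the prior count. That for WRKY41 is fitted against mock counts of 1 and 3. WRKY38, WRKY41 and WRKY51 passed the filter through libraries in which they are high.

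**Figure D4:**
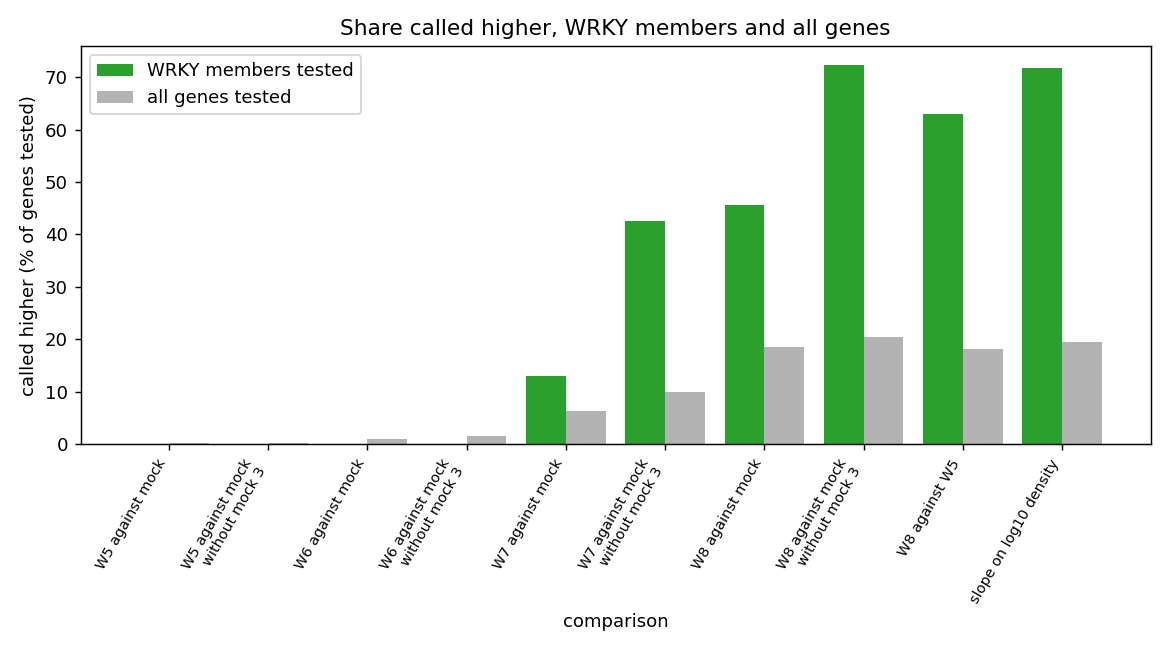
Share of genes called higher (% of the genes tested, edgeR, adjusted p under 0.05) among the WRKY members and among all genes, for each density against mock with and without mock replicate 3, for W8 against W5 and for the slope. WRKY bars exceed the bars of all genes from W7 on, and are at 0 for W5 and W6.

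Mock replicate 3 was not uniformly raised over the family. It was the highest mock library for 36 of 46 members (78.3%), against 37.2% of all genes, and it lay above all 3 W8 libraries for 8 members (17.4%), against 33.6% of all genes. Those 8 were WRKY3, WRKY28, WRKY30, WRKY41, WRKY44, WRKY48, WRKY51 and WRKY55. Of these, WRKY3 and WRKY44 were not above both other mock libraries, at 0.98-fold and 1.11-fold of their mean. Genes that are lower in W8 also meet this rule, so its shares do not measure how far levels were raised in mock replicate 3. WRKY30 was 24.0-fold above the mean of the other mock libraries there, while W8 was 10.7-fold above W5. WRKY70 showed the opposite order, at 4.15-fold in mock replicate 3 and 10.8-fold in W8 over W5, and so did WRKY53 at 1.58-fold and 4.68-fold. WRKY38, WRKY53, WRKY54 and WRKY70 were below all W8 libraries in mock replicate 3. W8 replicate 2 was the highest W8 library for 36 of 46 members, and W7 replicate 3 the highest W7 library for 26. The share of all genes was not computed for these W8 and W7 counts, so they are not read as a result about the members. On the first principal component of all genes W8 replicate 2 lay at 75.5, against 51.8 and 49.1 for W8 replicates 1 and 3.

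**Figure D5:**
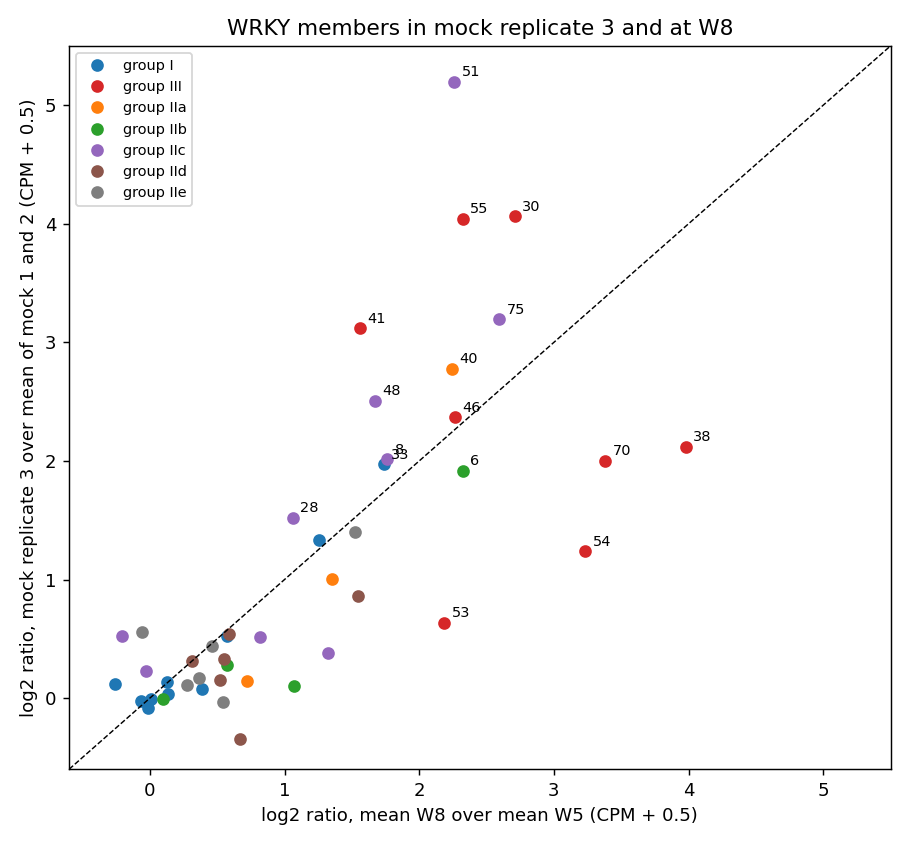
Each point is a tested WRKY member, coloured by phylogenetic group, with the log2 ratio of mean W8 over mean W5 on the x axis and of mock replicate 3 over the mean of mock replicates 1 and 2 on the y axis (CPM plus 0.5; dashed line, equal ratios). WRKY51, WRKY30, WRKY55 and WRKY41 lie above the line, and WRKY38, WRKY70, WRKY54 and WRKY53 below it.

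Within the inoculated groups, W8 against W5 called 29 of 46 members higher and 0 lower, where 18.1% of all genes rose and 15.2% fell, and 28 of the 29 were also called on the slope. Their number was 19 without W5 replicate 2 and 17 without W8 replicate 2. Of the single steps in density, W6 against W5 called 0 members in edgeR (0.273% of all genes rose and 0.0155% fell), with 3 rising and 0 falling at an unadjusted p under 0.05, and 0 in DESeq2. W7 against W6 called 0 in edgeR (1.59% of all genes rose and 1.03% fell), with 5 rising and 0 falling unadjusted. DESeq2 called WRKY15 and WRKY53 there. The unadjusted counts of these steps have no share of all genes beside them and are not read as a result about the members. W8 against W7 called 6 higher and 0 lower, where 6.79% of all genes rose and 5.32% fell: WRKY7, WRKY15, WRKY18, WRKY45, WRKY47 and WRKY60. A test of any difference among the 5 groups called 22 of 46 members, against 32.9% of all genes.

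Known partners of WRKY proteins, cascade genes and genes described as WRKY targets were read from short lists. These lists were chosen with earlier results of these data known. The shares of all genes beside their counts are for scale, and do not test whether the lists rose more than other genes. Of 11 VQ proteins, which bind WRKY domains, 7 passed the filter. In W8 against mock 6 of these rose, led by VQ10 (2.17, adjusted p = 3.68e-07) and SIB1 (2.13, adjusted p = 0.00838), a partner of WRKY33, and 5 rose on the slope, where 18.5% and 19.4% of all genes did. MKS1, the VQ protein that links WRKY33 to MPK4, rose by 0.63 (adjusted p = 0.0401), a call lost when any 1 of 11 libraries was left out, mock replicates 1 and 2 and all of W8 among them. Of 8 MAP kinase cascade genes upstream of WRKY factors 5 rose, MKK1 by 1.17 (adjusted p = 2.33e-05), MPK3 by 0.61 (adjusted p = 8.8e-05), MKK2 by 0.59, MPK6 by 0.28 and MEKK1 by 0.24. The slope also called 5 of these 8 as rising, against the same 18.5% and 19.4% of all genes.

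Of 16 described targets 13 passed the filter, 5 rose in W8 against mock, where 18.5% of all genes rose, and 10 on the slope, where 19.4% did. The 5 were PR1, the salicylic acid marker (7.79, adjusted p = 0.000691), FRK1, a marker of pattern-triggered immunity (4.49, adjusted p = 4.53e-06), PAD3, the camalexin enzyme driven by WRKY33 (4.07, adjusted p = 0.00522), EDS1 (0.70) and NPR1 (0.67). Without mock replicate 3 the counts in W8 against mock were 7 of 7 VQ genes, 6 of 8 cascade genes and 9 of 13 targets, where 20.5% of all genes rose. The changes were then 2.28 for VQ10, 3.10 for SIB1 and 1.07 for MKS1. In the cascade they were 1.31 for MKK1, 0.77 for MPK3, 0.70 for MKK2, 0.30 for MPK6 and 0.35 for MEKK1. PR1 had no count in mock replicates 1 and 2 and was called, but its fitted change then depends on the prior count and is not given. Among the other targets the changes were 5.06 for FRK1, 6.18 for PAD3, 0.77 for EDS1 and 0.75 for NPR1. PHO1, a target of WRKY6, was not called (-0.26, adjusted p = 0.516; -0.19 without mock replicate 3).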

How the data were processed

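The authors deposited raw gene-level counts for 15 libraries. The tools named are featureCounts 1.22.2 and cutadapt 1.9.1, with the build TAIR10, per the submitters' processing notes; aligner, annotation release and strand setting were not given in the sources used here. All columns matched a library title, and 0 entries named no gene. Symbols, exon lengths and promoters came from RefSeq TAIR10.1, where 49 of 49 members matched.

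In R 4.3.3, edgeR 4.0.16 kept genes by filterByExpr (minimum count 10, minimum total 15), scaled them by TMM and tested them by glmQLFit (robust) and glmQLFTest, with 1 mean per group over 15 libraries, or a slope on log10 density over 12. P values were adjusted over all genes tested. Changes are log2; SE is the absolute change over the square root of F. Levels are CPM with TMM factors, computed from the deposited counts; they limit low genes, for which a count of 1 is about 0.05 CPM. Pairs were compared by slopes of log2 CPM (prior count 2). The tests were tried on simulated data.

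Between the closest replicates chi-square per degree of freedom was 3.96, above sampling noise, so none was counted as a repeat. Alternatives were DESeq2 1.42.0, upper-quartile scaling, no filter, robust=FALSE, a replicate block, single comparisons alone, and each library left out.

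Members, lists and tests were chosen with earlier results of these data known. Fully described were the subgroups 18/40/60, 38/62, 46/53/54/70 and 11/17, WRKY33 and the 8 largest changes called in W8 against mock, and from the other lists called genes and up to 4 with the smallest p; others by phylogenetic group.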

Additional observations from a re-analysis of the deposited data

How the results depend on the processing

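Counts of called members in this section have no share of all genes beside them. They show how the calls depend on the processing and are not read as a result about the members. The slope on density called 31 to 35 members over single libraries left out. It called 16 without W8, when the 11 pairs gave 0 calls. Leaving out 1 library gave 0 members throughout for W5 and W6 against mock and W6 against W5, 0 to 20 members for W7 against mock, 14 to 34 for W8 against mock, 17 to 35 for W8 against W5, 0 to 6 for W7 against W6, 3 to 19 for W8 against W7 and 12 to 33 for any difference; the upper ends are without mock replicate 3. With only the compared groups fitted, counts were 3 for W7 against mock, 12 for W8 against mock, 7 for W7 against W6 and 10 for W8 against W7. DESeq2 called 1 member in W5 against mock, 2 in W6 against mock and 2 in W7 against W6, and robust=FALSE called 1 in the last. Leaving out mock replicate 3 and W8 replicate 2 together, an alternative chosen after seeing the data, gave 3 for W6 against mock, 22 for W7 against mock, 8 for W7 against W6 and 12 for W8 against W7. Upper-quartile scaling called WRKY3 lower in W8 against mock (-0.17, adjusted p = 0.0353). The cause was not tested.

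Replicate numbers were not used to pair the samples in the main tests. Same-numbered libraries of different groups had correlations of deviations of -0.30 to 0.32 over 30 pairs. Differently numbered libraries had -0.41 to 0.46 over 60 pairs. These ranges overlap and do not exclude a weak pairing. With a replicate block the slope called 34 members, W8 against mock 20, W7 against mock 6, W8 against W7 8, W8 against W5 30, any difference 21, and pairs 6.

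Signs turned in W8 against mock for members high in mock replicate 3. Over single libraries left out, the change ran from -2.13 to 8.37 for WRKY51, -1.05 to 2.74 for WRKY30, -1.06 to 3.41 for WRKY41, -1.66 to 3.18 for WRKY55 and -0.081 to 2.01 for WRKY48; the upper ends are without mock replicate 3. Without it and W8 replicate 2 the changes were 7.86 for WRKY51, 2.096 for WRKY30, 3.06 for WRKY41 and 1.73 for WRKY55, and with the replicate block 0.52, 0.15, 0.42 and 0.37. Small slope differences also turned: WRKY54 minus WRKY70 ran from -0.0207 to 0.13 over single libraries left out and was -0.27 without W8, WRKY46 minus WRKY53 was -0.0977 without W8, and WRKY11 minus WRKY17 ran from -0.0122 to 0.0261. IKU1, a VQ gene, ran from -0.00546 to 0.13 in W8 against W5, with -0.00855 under upper-quartile scaling and -0.00524 without mock replicate 3 and W8 replicate 2, and its slope was -0.0189 without W8. Over single genes and pairs, 3261 alternative values kept direction and side of the threshold, 207 lost the call, 57 gained one and 27 turned.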
